A study of Saccharomyces cerevisiae with 6 samples.

Results

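The mating-type genes of Saccharomyces cerevisiae lie at 3 loci of chromosome III: the expressed locus MAT and the silent cassettes HML and HMR. The 6 genes described here are HMLALPHA2 and HMLALPHA1 at HML, HMRA2 and HMRA1 at HMR, and MATALPHA2 and MATALPHA1 at MAT, of 6477 genes in the annotation. They were chosen by position: a core of 6 kb at each locus (10001 to 16000, 291001 to 297000 and 197001 to 203000 on the sacCer3 build), with 15 kb on each side. The windows held 103 bins of 1 kb, 18 of them in the cores, and the left flank of HML was clipped by the chromosome end.

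MAT decides whether a haploid yeast cell is of mating type a or α. The α allele encodes α1, which activates α-specific genes together with Mcm1, and α2, which represses a-specific genes. The a allele encodes a1, which joins α2 in diploid cells to repress haploid-specific genes, and a2, for which no function is known. HML carries a silent copy of the α genes and HMR of the a genes, and MAT shares sequence with both. Each silent cassette is flanked by silencers, E and I, from which Sir proteins spread. The origin recognition complex (ORC) binds there together with Rap1, Abf1 or both. ORC is also the complex that loads the MCM helicase at replication origins, and Orc2 is 1 of its subunits. The reference genome is that of a MATα strain, while W303-1a, the laboratory strain sequenced, is by its name a MATa strain.

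DNA of W303-1a cells was sequenced for 3 strain labels at 2 times. The groups were orc2ΔN200 (the first 200 residues of Orc2 missing) in S phase and in G1, orc2-I194E (a single Orc2 residue changed) in S phase and in G1, and WT in S phase and in G1. G1 libraries were taken at 0 min under the pheromone α-factor, to which MATa cells respond, and S libraries at 30 min after its removal. All cultures, WT included, had been grown in YPG, arrested with 10 µg/ml α-factor, held for 3 h in YPD with 15 µg/ml nocodazole to deplete orc2-1, and arrested again. All were stopped with 0.1% sodium azide. The question posed was how loss or change of the N-terminal part of Orc2 affects where DNA replication starts. Each group was 1 library, so no difference had a replicate check and no p-value is given. All intervals are 95% intervals for counting error only.

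The libraries held 3235720 to 3376203 counts, with a median of 255 to 273 in a usable bin. Before the loci were read, the strain labels were checked at ORC2 on chromosome II, relative to the usable bins within 15 kb. The bin with the first ORC2 codons (362001 to 363000) stood at 0.889 in S and 0.870 in G1 under the label orc2ΔN200. It stood at 1.82 in S and 1.32 in G1 under orc2-I194E, and at 1.62 in S and 1.90 in G1 under WT. The middle ORC2 bin (361001 to 362000) stood at 2.51 and 1.70 under orc2-I194E and at 1.77 and 2.49 under WT, S before G1. At LEU2 on chromosome III (91001 to 92000) the values were 2.44 and 1.65 under orc2-I194E and 1.77 and 2.51 under WT. In the middle ORC2 bin and at LEU2, the S library of each of these labels was thus closer to the G1 library of the other than to its own. Every replication value below is given for the libraries as labelled, and the main ones also with the 2 S libraries or the 2 G1 libraries of WT and orc2-I194E exchanged.

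The bins that hold the α genes were almost empty in all 6 libraries, at HML as well as at MAT, while those of the a genes at HMR were well covered. HMLALPHA2 (YCL067C, 12386 to 13018, Crick strand), the silent copy of the α2 repressor gene, lies mainly in the bin 12001 to 13000. That bin held 1 count in the S library of orc2ΔN200 and 0 in the other 5. HMLALPHA1 (YCL066W, 13282 to 13809, Watson strand), the silent copy of the α1 activator gene, lies in the bin 13001 to 14000. This bin held 22 counts in S and 19 in G1 labelled orc2ΔN200, 15 and 19 labelled orc2-I194E, and 17 and 8 labelled WT. A usable flank bin of HML held 243 to 298 counts on average, so the HMLALPHA1 bin stood at 0.0329 to 0.0773 of its flanks.

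The α gene bins at MAT were emptier still. MATALPHA1 (YCR040W, 200442 to 200969, Watson strand) lies in the bin 200001 to 201000, which held 0 counts in each of the 6 libraries. A count of 0 allows up to 3 counts, or 0.0107 to 0.0113 of the flank mean in a library, and the upper ends of the exact Poisson intervals were 0.0131 to 0.0139. MATALPHA2 (YCR039C, 199546 to 200178, Crick strand) spans this bin and the bin 199001 to 200000, which held 1 count in the S library of orc2-I194E and 0 in the other 5. In the reference the α cassettes of HML and MAT carry the same genes, and a read that matches both has no unique place. No reference sequence was used here, so the part that shared sequence or a missing α allele plays in these empty bins was not tested.

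HMR kept most of its counts. The bin 293001 to 294000 holds HMRA2 (YCR096C, 293179 to 293538, Crick strand) and the start of HMRA1 (YCR097W, 293835 to 294321, Watson strand). Relative to the flanks it stood at 0.738 in S and 0.752 in G1 labelled orc2ΔN200, at 0.733 and 0.787 labelled orc2-I194E, and at 0.865 and 0.879 labelled WT. All 6 values lay below the flank mean. The next bin, 294001 to 295000, holds the rest of the a1 gene and stood above the flank mean in all 6 libraries. Its values were 1.07 (0.952 to 1.19) in S and 1.09 (0.967 to 1.22) in G1 labelled orc2ΔN200, 1.13 (lower bound 1.01) and 1.31 (1.18 to 1.45) labelled orc2-I194E, and 1.34 (1.20 to 1.49) and 1.05 (0.926 to 1.18) labelled WT. The S library labelled WT and the G1 library labelled orc2-I194E were the highest.

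**Figure D1:**
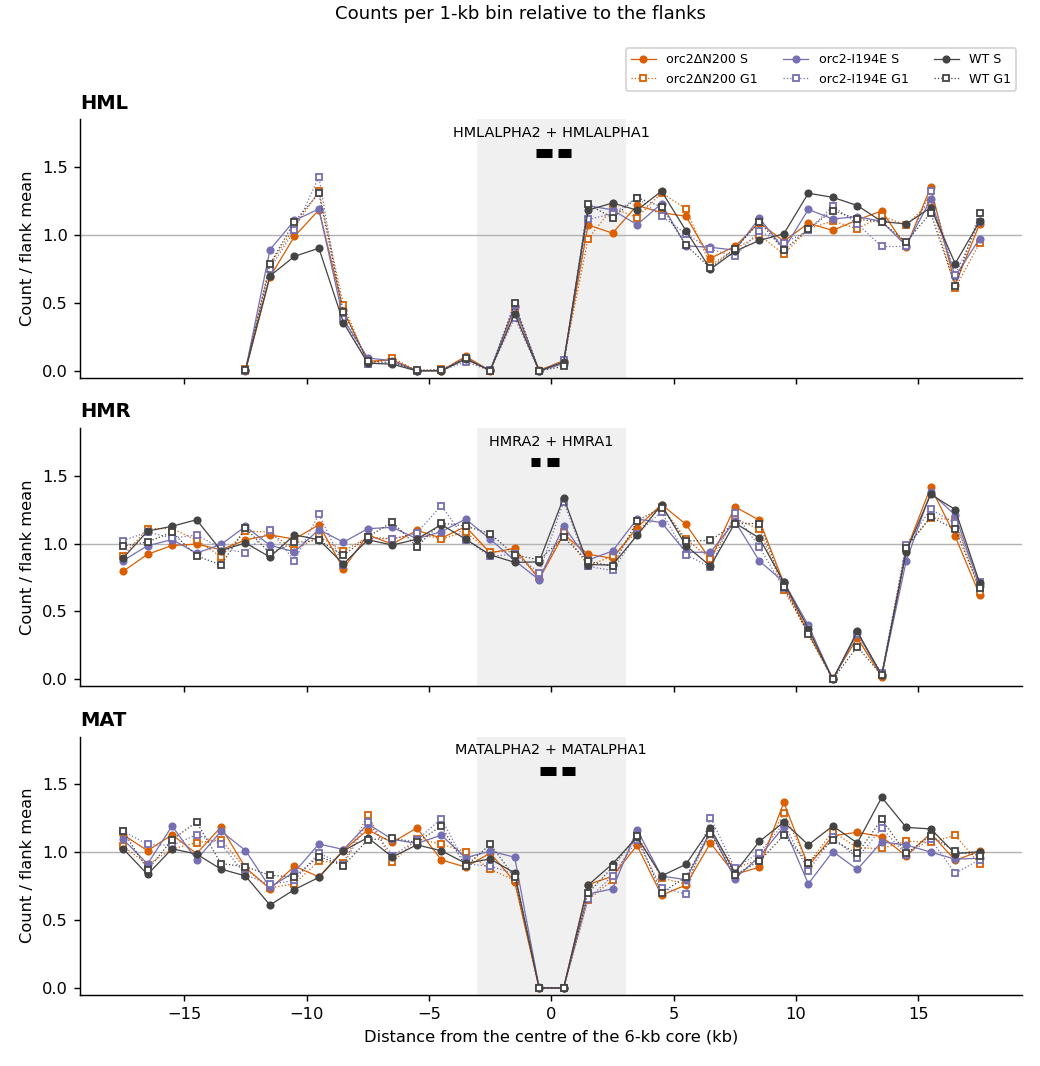
Count of each 1-kb bin divided by the mean of the usable flank bins (vertical axis) against the distance from the centre of the 6-kb core in kb (horizontal axis), for HML, HMR and MAT. Colours are strains, filled circles S and open squares G1, grey bands the cores and black bars the member genes. The α gene bins of HML and MAT lie near 0 in all 6 libraries, and the HMRA1 bin lies between 1.05 and 1.34.

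Core by core, the 3 loci kept different shares of their counts, and the 6 libraries gave much the same share at each. The HML core stood at 0.438 and 0.450 of its flanks labelled orc2ΔN200, 0.489 and 0.457 labelled orc2-I194E and 0.484 and 0.480 labelled WT, S before G1. In the same order the HMR core stood at 0.919 and 0.910, 0.932 and 0.926, and 0.944 and 0.936. The MAT core stood at 0.560 and 0.518, 0.566 and 0.536, and 0.578 and 0.577. Under 0.75 of the flanks in all 6 libraries were 4 of 6 core bins at HML, 0 of 6 at HMR and 2 of 6 at MAT, where 7.91% of all 11939 bins outside the ribosomal DNA array were. More than 25% above the flanks in all 6 libraries were 0 of 18 core bins, against 0.293% of all bins. The HMRA1 bin passed that limit in 2 libraries.

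Other low bins of the windows lay over other genes or over none. In the HML core, VBA3, a vacuolar transporter gene, held 0 or 1 counts per library in the bin 10001 to 11000. The bin 11001 to 12000, with the end of VBA3 and YCL068C, stood at 0.390 to 0.497. The bin 15001 to 16000, with part of CHA1, a serine and threonine deaminase gene, stood at 1.01 to 1.24. Farther left, the bins over GEX1, a glutathione exchanger gene, stood at 0.0975 or lower, and 4 of the 10 bins left of the HML core were usable. Right of HMR, the bins over YCR102C stood at 0.399 or lower. The first bin over PAU3, a gene of the seripauperin family, stood at 0.0447 or lower, and the next at 0.871 to 0.992. The bins over YCR101C and RDS1 that were low in all 6 libraries reached 0.717 and 0.716. At MAT, BUD5, a bud site selection gene, kept 0.782 to 0.962 in the bin 198001 to 199000 and 0.874 to 1.06 in the bin before. The bin 201001 to 202000, over YCR041W and TAF2, stood at 0.650 to 0.761. TAF2 encodes a subunit of the transcription factor TFIID.

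Replication was read as the share of a locus in the S library over its share in the G1 library of the same label, on the log2 scale, where 0 is the genome mean. As labelled, HMR lay above the genome mean in both mutants and below it in WT, HML lay high in both mutants, and MAT lay closest to the mean. The HMR core held 1628 counts in S and 1482 in G1 labelled orc2ΔN200, 1739 and 1490 labelled orc2-I194E, and 1428 and 1488 labelled WT. This gave log2 ratios of 0.18 (0.079 to 0.28) for orc2ΔN200, 0.29 (0.19 to 0.39) for orc2-I194E and -0.10 (-0.21 to 0.0022) for WT. The WT interval did not overlap those of the mutants. The HML core held 784 and 692 counts, 833 and 674, and 769 and 701 in the same order. Its log2 ratios were 0.23 (0.077 to 0.38) for orc2ΔN200, 0.37 (0.22 to 0.52) for orc2-I194E and 0.089 (-0.060 to 0.24) for WT, and all 3 intervals overlapped. The MAT core held 944 and 875 counts, 903 and 861, and 971 and 927. Its log2 ratios were 0.16 (0.021 to 0.29) for orc2ΔN200, 0.14 (-0.00081 to 0.27) for orc2-I194E and 0.023 (-0.11 to 0.15) for WT.

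**Figure D2:**
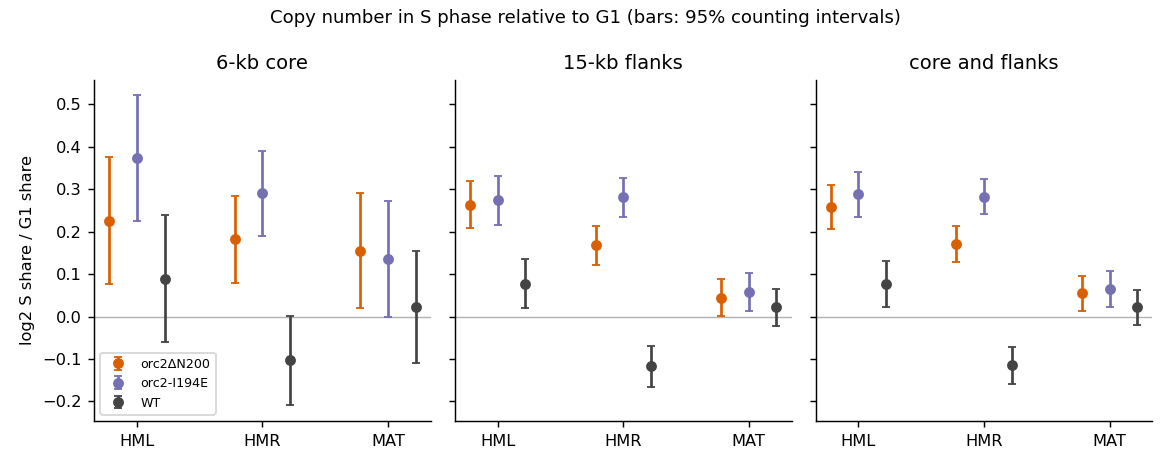
The log2 ratio of the S share to the G1 share (vertical axis) at HML, HMR and MAT (horizontal axis), for the 6-kb core, the flanks and both together. Points are strains and bars are 95% counting intervals. WT lies at -0.10 in the HMR core, below both mutants.

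Among the cores, the mutants differed from WT most at HMR, but the intervals there overlapped those of the other cores. The difference in the HMR core was 0.28 (0.14 to 0.43) for orc2ΔN200 and 0.39 (0.25 to 0.54) for orc2-I194E. In the HML core it was 0.14 (-0.072 to 0.35) for orc2ΔN200 and 0.28 (0.075 to 0.49) for orc2-I194E. In the MAT core it was 0.13 (-0.053 to 0.32) for orc2ΔN200 and 0.11 (-0.074 to 0.30) for orc2-I194E, and both intervals held 0. In G1 alone the MAT core was lower in orc2ΔN200 by a log2 ratio of -0.15 (-0.28 to -0.015) and in orc2-I194E by -0.16 (-0.30 to -0.024) relative to WT. In S alone it stood at -0.017 (-0.15 to 0.11) and -0.047 (-0.18 to 0.085) relative to WT. For orc2-I194E the HML core stood at 0.17 (0.030 to 0.32) in S and -0.11 (-0.26 to 0.045) in G1. The HMR core stood at 0.34 (0.24 to 0.44) in S and -0.051 (-0.16 to 0.053) in G1 of orc2-I194E. For log2 S over G1, a difference above 0.2 was thus seen at HMR alone for orc2ΔN200. Along the genome, 10.7% of 1875 windows of 6 kb had one. For orc2-I194E it was seen at HML and HMR, where 13.2% of windows had one. HMR passed it in both mutants, which share the WT libraries, as did 7.52% of windows.

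Over cores and flanks together the counting error was smaller. In both mutants the intervals of HML and HMR then lay above that of MAT, while in orc2-I194E HML and HMR stood close together. The HMR window stood at 0.17 (0.13 to 0.21) labelled orc2ΔN200, 0.28 (0.24 to 0.32) labelled orc2-I194E and -0.11 (-0.16 to -0.071) labelled WT. The HML window stood at 0.26 (0.21 to 0.31), 0.29 (0.23 to 0.34) and 0.077 (0.023 to 0.13) in the same order. The MAT window stood at 0.055 (0.014 to 0.097), 0.064 (0.022 to 0.11) and 0.021 (-0.020 to 0.063). Of the 33 usable bins of the HMR window, 29 were above 0 in orc2ΔN200, 33 in orc2-I194E and 6 in WT. All 22 usable bins of the HML window were above 0 in each mutant, and 15 in WT. In both mutants above WT were 29 of 33 bins at HMR, 14 of 22 at HML and 15 of 34 at MAT, against 36.8% of all usable bins. At MAT 22 of 34 bins were above 0 in each mutant and 20 in WT, close to each other. The share of all usable bins above 0 was not taken per strain. Medians over all 6-kb windows were -0.018 in orc2ΔN200, -0.028 in orc2-I194E and 0.015 in WT. Neighbouring bins of a library are not independent, so these counts are descriptive only.

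Both cassettes stood above MAT in both mutants, while in WT HMR stood below it. Over cores and flanks, HML minus MAT was 0.20 (0.14 to 0.27) in orc2ΔN200, 0.22 (0.16 to 0.29) in orc2-I194E and 0.055 (-0.013 to 0.12) in WT. HMR minus MAT was 0.12 (0.057 to 0.17) in orc2ΔN200, 0.22 (0.16 to 0.28) in orc2-I194E and -0.14 (-0.20 to -0.076) in WT. The change of HMR minus MAT against WT was 0.25 (0.17 to 0.34) for orc2ΔN200 and 0.35 (0.27 to 0.44) for orc2-I194E. That of HML minus MAT was 0.15 (0.053 to 0.24) and 0.17 (0.072 to 0.26). In the cores alone, with fewer counts, HMR minus MAT was 0.026 (-0.14 to 0.19) in orc2ΔN200, 0.15 (-0.013 to 0.32) in orc2-I194E and -0.13 (-0.29 to 0.041) in WT. There HML minus MAT was 0.071 (-0.13 to 0.27), 0.24 (0.038 to 0.44) and 0.067 (-0.13 to 0.26). Only HML in orc2-I194E kept an interval above 0 in the cores.

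The directions at HMR, and that of the HML difference for orc2-I194E, depended on which S library is taken as WT. So did the directions of the change of HML minus MAT against WT. With the S libraries of WT and orc2-I194E exchanged, the HMR window stood at 0.17 in orc2ΔN200, -0.076 in orc2-I194E and 0.24 in WT, and the difference from WT became -0.073 (-0.13 to -0.014) for orc2ΔN200 and -0.32 (-0.38 to -0.26) for orc2-I194E. HMR minus MAT then was -0.16 in orc2-I194E and 0.24 in WT. The difference of the HML window from WT became 0.021 (-0.053 to 0.095) for orc2ΔN200 and -0.11 (-0.19 to -0.034) for orc2-I194E. HML minus MAT then was 0.043 (-0.025 to 0.11) in orc2-I194E and 0.24 in WT. Its change against WT became -0.033 (-0.13 to 0.062) for orc2ΔN200 and -0.19 (-0.29 to -0.098) for orc2-I194E. With the G1 libraries exchanged instead, the difference of the HMR window was 0.32 (0.26 to 0.38) for orc2-I194E. Among S libraries, the HMR window took 3249 CPM (counts scaled to the total over usable bins) labelled orc2ΔN200, 3512 labelled orc2-I194E and 2741 labelled WT. In G1 it took 2887 CPM labelled orc2ΔN200, 2889 labelled orc2-I194E and 2967 labelled WT. The log2 ratio of the G1 libraries over WT was -0.039 (-0.082 to 0.0037) for orc2ΔN200 and -0.038 (-0.081 to 0.0047) for orc2-I194E, so the G1 libraries were close together and the S libraries far apart.

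**Figure D3:**
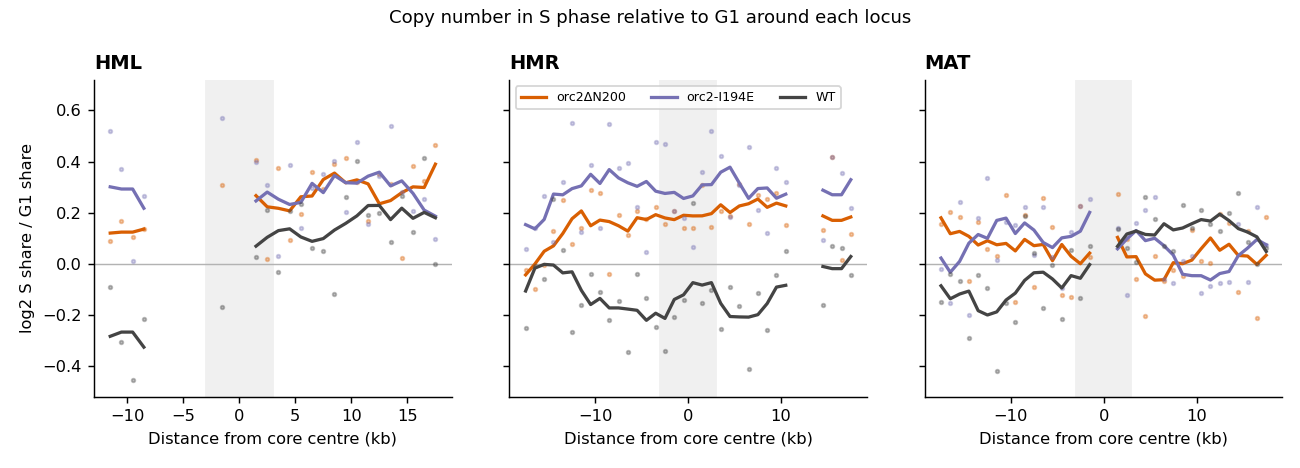
The log2 ratio of the S share to the G1 share (vertical axis) along each locus, against the distance from the core centre in kb (horizontal axis). Dots are usable 1-kb bins, lines are 5-kb running means, gaps are bins left out and grey bands are the cores. Of the 33 usable bins at HMR, 29 were higher in both mutants than in WT.

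The 2 sides of a locus did not always stand alike. The flank left of HML, toward the chromosome end, stood at 0.12 in orc2ΔN200, 0.26 in orc2-I194E and -0.30 in WT, and the right flank at 0.29, 0.28 and 0.15. Left minus right was -0.17 (-0.31 to -0.027) in orc2ΔN200, -0.012 (-0.16 to 0.13) in orc2-I194E and -0.45 (-0.60 to -0.29) in WT. The left values rest on 4 bins. Over these, the difference from WT was 0.42 for orc2ΔN200 and 0.56 for orc2-I194E, larger than in the HMR core. At MAT, left minus right was 0.058 (-0.029 to 0.14) in orc2ΔN200, 0.048 (-0.041 to 0.14) in orc2-I194E and -0.24 (-0.33 to -0.15) in WT, where the left flank stood at -0.10 and the right at 0.14. The MAT intervals of the mutants did not overlap that of WT. At HMR the left flank stood at 0.13, 0.27 and -0.11 and the right flank at 0.22, 0.29 and -0.12, with WT lowest on both sides.

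Genes beside the loci were read over the 5 kb around each gene. These stretches hold bins of the windows above, so the gene values are not separate evidence for the profiles. Left of HMR, CDC39, which encodes the scaffold of the CCR4-NOT complex, stood at 0.15 in orc2ΔN200, 0.34 in orc2-I194E and -0.16 in WT. Right of it, GIT1, a glycerophosphoinositol transporter gene, stood at 0.23, 0.35 and -0.16. MSH3, a mismatch repair gene at the left edge of the window, stood at 0.048, 0.17 and 0.00027. On the inner side of HML, MRC1, a replication fork and checkpoint gene, stood at 0.32, 0.28 and 0.098, and KAR4, a transcription factor gene of the mating response, at 0.31, 0.27 and 0.16. Left of MAT, SNT1 stood at 0.079, 0.18 and -0.18. Right of it, ARE1, a sterol acyltransferase gene, stood at 0.056, -0.035 and 0.19, with WT highest. Its difference from WT was -0.14 for orc2ΔN200, with an interval that held 0, and -0.23 for orc2-I194E, with one that did not. The intervals of the difference from WT also held 0 at KAR4 in both mutants and at MSH3 in orc2ΔN200. These flanking genes were picked with their values in view.

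Within the HMR core, the strains differed less in the cassette bins than in the bins around them. In the 2 bins of HMRA2 and HMRA1 the log2 ratio was 0.14 in orc2ΔN200, 0.11 in orc2-I194E and 0.078 in WT. In the other 4 core bins it was 0.20, 0.39 and -0.21. The difference from WT was 0.063 (-0.18 to 0.31) in the cassette bins and 0.41 (0.23 to 0.59) in the others for orc2ΔN200. For orc2-I194E it was 0.032 (-0.21 to 0.27) and 0.60 (0.42 to 0.78). The gap between cassette and other bins was -0.35 (-0.65 to -0.040) for orc2ΔN200 and -0.56 (-0.87 to -0.26) for orc2-I194E. In the bin 294001 to 295000 the log2 ratio was 0.14 in orc2ΔN200, 0.067 in orc2-I194E and 0.24 in WT, the only HMR core bin above 0 in WT. The counts of this bin were 315 in S and 295 in G1 labelled orc2ΔN200, 351 and 351 labelled orc2-I194E, and 337 and 277 labelled WT. In the bin 293001 to 294000 the log2 ratios were 0.14, 0.18 and -0.14, with WT lowest, as in the other 4 core bins. The gap thus rests largely on the bin 294001 to 295000, and it was not taken with libraries exchanged. Whether reads from a copy of the a genes at MAT were counted here was not tested.

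**Figure D4:**
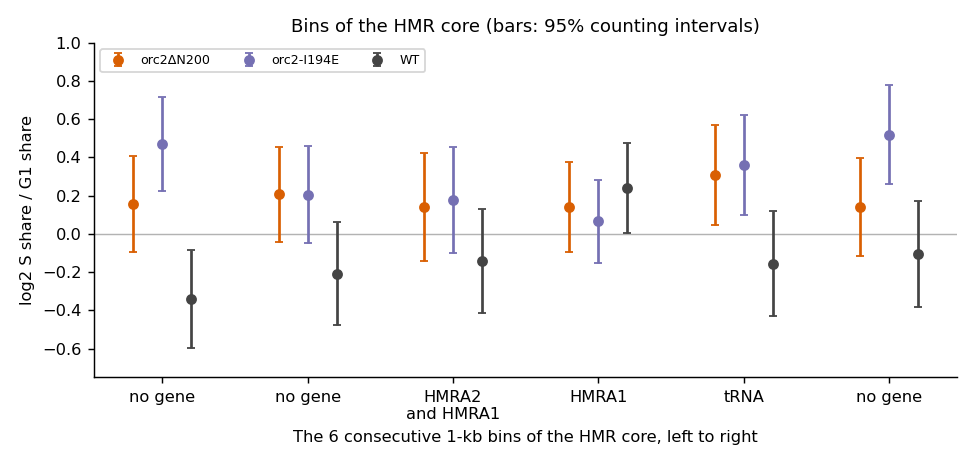
The log2 ratio of the S share to the G1 share (vertical axis) in the 6 bins of the HMR core from left to right (horizontal axis), by strain, with 95% counting intervals. WT lies below 0 in 5 bins and at 0.24 in the HMRA1 bin.

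Both cassettes lie within 30 kb of a chromosome end, and MAT does not. The 90 windows of 6 kb that close to an end had median log2 ratios of 0.12 in orc2ΔN200, 0.14 in orc2-I194E and 0.028 in WT, against -0.018, -0.028 and 0.015 over all 1875 windows. Of these 90 windows, 82.2% were higher in orc2ΔN200 and 80.0% in orc2-I194E than in WT, with median differences of 0.098 and 0.12. Over all 1875 windows these shares were 48.3% and 49.4%. Leaving out chromosome III, the 82 remaining windows had median differences of 0.090 and 0.091. The 90 windows include some of chromosome III that overlap the cassettes, so the loci are ranked in part against themselves. The differences of the HMR core were above those of 91.1% of the 90 windows for orc2ΔN200 and 93.3% for orc2-I194E. Those of the HML core were above 66.7% and 84.4%. The HMR core of WT, at -0.10, was above 12.2% of them. All these window values are for the libraries as labelled and were not taken with libraries exchanged. Both mutants are set against the same WT libraries. Being silenced and lying near an end cannot be told apart at these 2 loci.

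**Figure D5:**
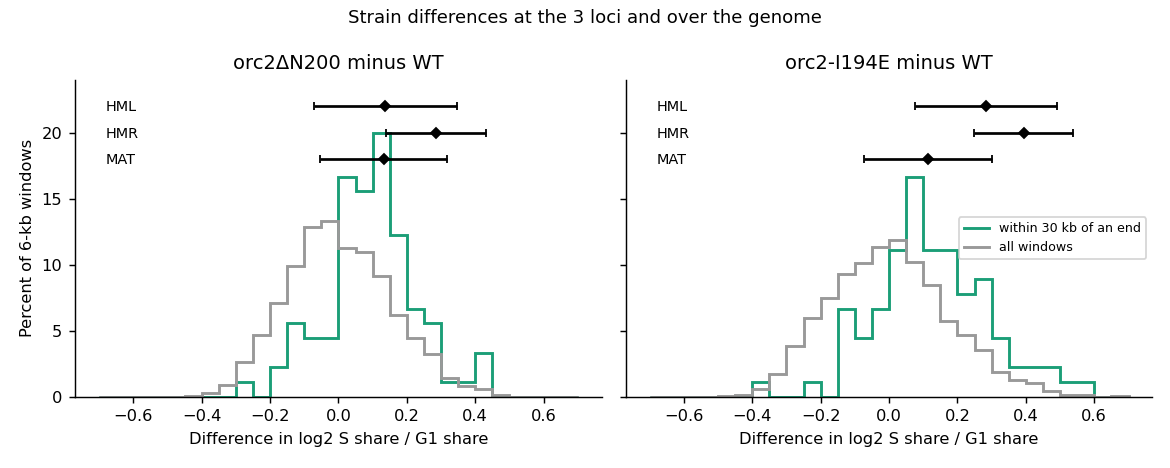
Percent of 6-kb windows (vertical axis) by the difference in log2 S over G1 share between a mutant and WT (horizontal axis), for windows within 30 kb of a chromosome end (90) and all windows (1875). Diamonds with 95% counting intervals mark the cores, placed by locus and not by the vertical scale. HMR lies at 0.28 for orc2ΔN200 and 0.39 for orc2-I194E.

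Genes that act on the cassettes lie elsewhere and were read in the same way, over 5 kb each. The first list held 19 genes of silencing, such as the SIR genes, RAP1, ABF1 and the 6 ORC genes. In orc2ΔN200, 3 of 19 were above WT by more than 0.2 and 3 below by more than 0.2, against 10.3% and 9.4% of 6118 genes. In orc2-I194E, 5 were above and 4 below, against 12.5% and 13.1%. The list's median difference was -0.068 and -0.090, against -0.0073 and -0.0078 over all genes. The farthest was ORC2 itself, at 0.46 and 0.75, where the copy levels crossed between labels. ORC5 stood at 0.27 and 0.21, ORC1 stood at -0.22 and -0.30 relative to WT, and SIR1, which is recruited by ORC to the silencers, at -0.28 and -0.032.

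The second list held 23 genes of mating and mating-type switching, such as the pheromone, receptor and agglutinin genes and HO, the endonuclease gene that starts switching at MAT. In orc2ΔN200, 2 were above WT by more than 0.2 and 1 below. In orc2-I194E, 1 was above and 3 below. As shares of the list these were 8.70% and 4.35%, against 10.3% and 9.4% of all genes, for orc2ΔN200, and 4.35% and 13.0%, against 12.5% and 13.1%, for orc2-I194E. Median differences were -0.060 and -0.065, against -0.0073 and -0.0078 over all genes. FUS3, the mating MAP kinase gene, stood at -0.31 in orc2ΔN200 and -0.12 in orc2-I194E relative to WT. RME1, a regulator of meiosis entry, stood at -0.16 and -0.27, STE2, the α-factor receptor gene, at 0.21 and 0.27, and SAG1, the α-agglutinin gene, at -0.097 and -0.21. In G1 the lowest copy level of a mating gene was 0.889 of its flanks in orc2ΔN200 and 0.848 in orc2-I194E, so none had the near-zero counts of the α cassettes.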

How the data were processed

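Genomic DNA was sequenced in 6 libraries, 1 per strain and time. The authors deposited whole-number counts per 1-kb bin; empty bins are not listed. Per the submitters' processing notes the tools were R 4.3.0, bedtools 2.31.0, SAMtools 1.18, Picard 2.27.5 and Bowtie2 2.5.3, with the build sacCer3. What each tool did, how duplicates and reads with several places were handled, and the unit counted (read or fragment) are not given in the sources used here.

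Computation used SciPy 1.17.1, pandas 2.3.3 and numpy 2.4.6 under Python 3.11.15, and figures matplotlib 3.10.9. A bin not listed was taken as 0. Of 12014 nuclear bins, 11273 were usable: outside the ribosomal DNA (451001 to 490000 on chromosome XII), above 0 in every library, and with each G1 count within 0.3 to 3 times that library's median. Shares are relative to the total over usable bins. Count over flanks used the mean of the usable bins of the 15-kb flanks. Intervals are exact Poisson for counts, Clopper-Pearson for ratios of 2 counts, and Poisson standard errors for differences, at 95%. They cover counting error only. Windows of 6 kb needed at least 4 usable bins. Core values use all 6 bins. Steps were tested on simulated data.

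Named genes were the 6 members, genes of the cores and of flank bins low in all libraries, and the 4 of each list farthest from WT; other flanking genes were added. Gene positions came from RefSeq R64, the assembly of sacCer3. The members and lists were chosen with earlier results of these data known. With 1 library per group no test was run. Alternatives covered flank width, scaling, denominator, regions and exchanged labels. No genome or promoter sequence was used here.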

Additional observations from a re-analysis of the deposited data

Results flagged for a closer look

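In the HMR core, S over G1 stood above the genome mean in each mutant and below it in WT. The difference was 0.28 on the log2 scale for orc2ΔN200 and 0.39 for orc2-I194E. With 1 library per group, the difference was not tested over samples. Both comparisons use the same WT libraries. The interval of WT itself (-0.21 to 0.0022) held 0. With the S libraries of WT and orc2-I194E exchanged, the differences were -0.057 for orc2ΔN200 and -0.29 for orc2-I194E. Of the 90 windows within 30 kb of a chromosome end, 82.2% were higher in orc2ΔN200 and 80.0% in orc2-I194E than in WT. Over all windows these shares were 48.3% and 49.4%. The shares are for the libraries as labelled and were not taken with libraries exchanged.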

How the results depend on the processing

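Of 325 log2 values under an alternative, 34 changed sign. In 16 of these the reported interval had excluded 0, and all 16 came from exchanging the S libraries of WT and orc2-I194E; the cause was not tested. In the other 18 the reported interval held 0, and they lay under that exchange (8), the G1 exchange, the common G1 denominator, the median of bins or the share of chromosome III. With the S libraries exchanged, the cores gave log2 S over G1 of 0.20 (HML) and -0.052 (HMR) in orc2-I194E and 0.26 and 0.24 in WT. HML minus MAT was 0.017 in orc2-I194E and 0.29 in WT, and HMR minus MAT -0.23 and 0.26. The difference from WT was -0.063 (HML) and -0.29 (HMR) in orc2-I194E and -0.057 (HMR) in orc2ΔN200. That of HML minus MAT was -0.27 in orc2-I194E, and that of HMR minus MAT -0.24 in orc2ΔN200 and -0.50 in orc2-I194E. Over cores and flanks, an exchange added after seeing the data, HMR stood at -0.076 in orc2-I194E and 0.24 in WT, and HMR minus MAT at -0.16 and 0.24. The difference from WT was -0.11 at HML in orc2-I194E, and at HMR -0.073 in orc2ΔN200 and -0.32 in orc2-I194E. That of HML minus MAT was -0.033 and -0.19, and that of HMR minus MAT -0.13 and -0.40.

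With the G1 libraries exchanged, the MAT core stood at -0.024 in orc2-I194E and 0.18 in WT. The difference from WT was 0.063 at HML and -0.21 (-0.39 to -0.020) at MAT in orc2-I194E and -0.027 at MAT in orc2ΔN200, and that of the MAT window -0.084 (-0.14 to -0.024) and -0.030. With the common G1 denominator the MAT core difference was -0.017 in orc2ΔN200 and -0.047 in orc2-I194E. Without the cassette bins, HMR in orc2-I194E differed from WT by 0.60. As a share of chromosome III, HMR in orc2-I194E stood at 0.17, and in orc2ΔN200 the intervals of HML (0.13), HMR (0.081) and MAT (0.055) held 0.

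With all flank bins kept, the HML core stood at 0.569 in S and 0.584 in G1 of orc2ΔN200, 0.635 and 0.595 of orc2-I194E, and 0.630 and 0.624 of WT. The HMR core then stood at 1.01 and 0.998, 1.02 and 1.01, and 1.03 and 1.03. Against the library median, S values were 0.499 (HML), 1.04 (HMR) and 0.601 (MAT) in orc2ΔN200, 0.544 (HML) and 1.14 (HMR) in orc2-I194E, and 0.891 (HMR) in WT, with 0.416 for HML in orc2-I194E G1. Against the flank median, HML stood at 0.406 in orc2ΔN200 S, 0.455 in orc2-I194E S and 0.439 in WT G1. With a threshold of 0.3, 2.99% of windows passed in orc2ΔN200 and 4.91% in orc2-I194E.

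No paired analysis was possible because each group was 1 library and the labels give no replicate numbers; S and G1 of a label enter only as their ratio. Core values rest on 674 to 1739 counts, and differences smaller than their intervals were not detectable at this depth.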

Other observations

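The HMRA1 bin (294001 to 295000 on chromosome III) was high in the S library labelled WT and in the G1 library labelled orc2-I194E, at 1.34 and 1.31 of its flanks. The log2 of the S WT and G1 orc2-I194E counts over the G1 WT and S orc2-I194E counts, after scaling, was 0.62. The ratio was taken in 11272 of the usable bins. A value as high was found in 10 of them, this bin included (0.0887%), and one as far from 0 in either direction in 28 (0.248%). This bin was chosen after its values were seen.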
